A study of Homo sapiens with 6 samples.

Results

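The 9 genes studied belong to MHC class I antigen presentation and were taken by their symbols from a table of 32692 human genes: the heavy chains HLA-B, HLA-C and HLA-E, the light chain B2M, the peptide transporter subunits TAP1 and TAP2, the loading factor TAPBP, the trimming enzyme ERAP1 and the transactivator NLRC5. All 9 had a row, and 4 of them reached the minimum set for testing, an average of 1 or more across the 6 libraries. RNA came from DU145, an established human prostate carcinoma line that does not depend on androgen, treated for 24 h with OTI-611 at 5 µM, or with DMSO as the vehicle. The series title names the chromatin remodeller CHD1L as the target. No allele or other agent is named, each group held 3 libraries, and the same line served for both.

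Class I molecules show peptides from inside the cell to CD8+ T cells and to natural killer cells. The proteasome cuts proteins into peptides, TAP1 and TAP2 carry these into the endoplasmic reticulum, ERAP1 trims them, and TAPBP (tapasin) holds the transporter to an empty heavy chain paired with B2M until a peptide fits. NLRC5 carries no DNA-binding domain of its own and turns the genes on through RFX, CREB/ATF and NF-Y proteins sitting on their promoters, and interferon raises the whole set, in part through IRF1.

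Values are read as RPKM, reads set against gene length and library depth, though no unit was given with them. DMSO 1 was deposited as whole numbers only and is taken to be RPKM rounded down, so the tests of the 9 genes and most counts by list are also given without it. Its absence changes the call or the overlap of further single genes of the lists, of which only some are given. The spacing of low values gave estimated depths of 30.6M to 37.7M reads for the other 5 libraries, and none for DMSO 1. A bulk value is a mean over all cells, so that fewer cells carrying a transcript and less of it per cell cannot be told apart. Of 6 epithelial and DU145 markers in the table, KRT8, KRT18, KRT19, EPCAM and CDH1 (E-cadherin) were present in every library and KLK3 was under 1 everywhere. KRT8 fell by 0.50 (limma adjusted p = 1.07e-06) and CDH1 from 4, 4.39 and 4.80 to 1.45, 1.46 and 1.71 RPKM (-1.09, adjusted p = 7.11e-06), while KRT19 (0.13, adjusted p = 0.028) was no longer called without DMSO 1 (0.11) and EPCAM and KRT18 did not pass. All 7 measured leukocyte markers, all 5 fibroblast markers and all 5 endothelial markers stayed under 1 everywhere. The summed leukocyte markers came to 0.49 to 1.16 in DMSO 2 and DMSO 3 and to 0.103 to 0.347 with OTI-611, the fibroblast markers to 0.768 to 0.777 and 0.163 to 0.218, and the endothelial markers to 0.0486 to 0.0503 and 0.0092 to 0.0585. The part of these markers in the results was not tested.

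The low values of the chromosome 6 genes cannot be read as low expression. Of the 9 genes, 6 (HLA-B, HLA-C, HLA-E, TAP1, TAP2 and TAPBP) lie in the MHC, here the stretch from the start of HLA-F to the end of TAPBP (chromosome 6, 29722775 to 33314387, GENCODE release 29 on GRCh38). Of the 90 protein-coding genes of that stretch in the table, 7 had a mean of at least 1 (7.78%), against 460 of 726 on the rest of chromosome 6 (63.4%) and 10214 of 15959 on the rest of the genome (64.0%). Genes that every dividing cell uses were among the near-empty ones. RPS18, a protein of the small ribosomal subunit, had from 0.822 to 1.25 RPKM in the 5 libraries with decimals. The 78 other cytosolic ribosomal protein genes had a median of 227, though 4 of them had a mean under 2, the lowest 0.0554. The chaperone gene BAG6 lay between 0.499 and 0.700, the valine tRNA synthetase gene VARS1 between 0.658 and 0.817, and CSNK2B, the regulatory subunit of casein kinase 2, between 0 and 0.0110. Among the 7 exceptions were HLA-F, PPP1R11, HLA-B, AGPAT1, HLA-DRB1 and WDR46. The cause of the low values was not tested.

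**Figure D1:**
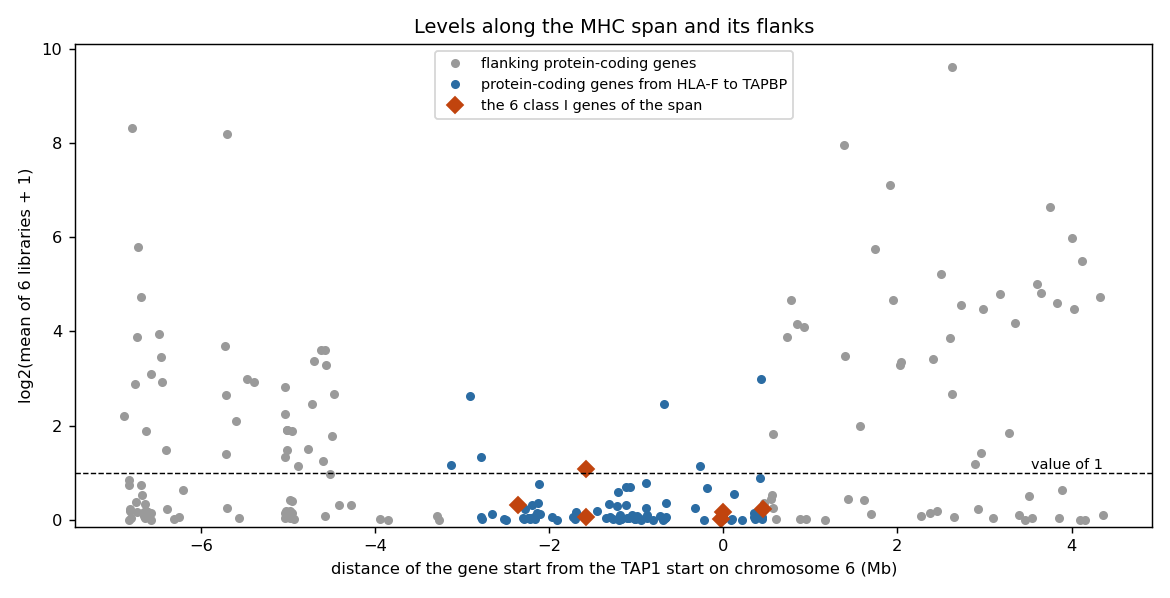
Level of protein-coding genes along chromosome 6, as log2 of the mean of the 6 libraries plus 1, against the distance of each gene's start from the start of TAP1 in Mb. Blue points are the 90 genes from HLA-F to TAPBP, of which 7 reach the dashed line at a value of 1, orange diamonds are the 6 class I genes among them, and grey points are the flanking genes, which reach far higher levels on both sides.

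Sharing of sequence with annotated copies was measured for these genes. Reads from such copies can be assigned to either gene or to neither, and the handling of shared reads is not given in the sources used here. In the longest coding transcript, 2.54% of the 50-base stretches of HLA-B occurred in a transcript of another gene, 6.71% of those of HLA-C and 5.13% of those of HLA-E, mostly in other HLA genes. For TAP1 it was 1.07%, for TAPBP 6.09%, and for TAP2 35.8%, nearly all in an unnamed overlapping transcript (AL669918.1). For B2M, ERAP1, NLRC5, BAG6 and VARS1 it was 0%, but for RPS18 it was 39.2% and for CSNK2B 51.4%. Among the 51 genes of the stretch with no shared 50-base stretch found, 2 had a mean of at least 1 (3.92%). The comparison used reference sequence on the primary assembly only, so copies outside that assembly were not searched. The part of shared sequence in the low values was not tested. In this annotation HLA-B runs from 31269491 to 31357188 and overlaps HLA-C, which runs from 31268749 to 31272130, both on the minus strand.

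Among the heavy chains, HLA-B was the only one of the 3 above the minimum. It stood at 1 in DMSO 1, 1.18 in DMSO 2 and 1.06 RPKM in DMSO 3, and at 1.44, 1.14 and 0.911 RPKM with OTI-611, about 105 to 163 estimated reads in the 5 libraries with decimals. The groups overlapped, with the highest and the lowest value both among the OTI-611 libraries. Its log2 difference, OTI-611 minus DMSO on the log2(value + 1) scale, was 0.05 with a 95% interval from -0.27 to 0.36 (limma adjusted p = 0.78), and 0.02 without DMSO 1 (adjusted p = 0.89). The direction is not established, since it turned to -0.04 without OTI-611 1.

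HLA-C, another classical heavy chain, was listed at 0 in DMSO 1, 0.0347 in DMSO 2 and 0.115 in DMSO 3, and at 0.0285, 0.0285 and 0.0422 RPKM with OTI-611. These are about 3 to 9 reads per library. HLA-E, a non-classical heavy chain that presents leader peptides of other class I molecules to natural killer cells, was listed at 0 in DMSO 1, 0.320 in DMSO 2 and 0.218 in DMSO 3, and at 0.273, 0.367 and 0.301 RPKM with OTI-611. For both genes DMSO 2 and DMSO 3 overlapped with the OTI-611 libraries.

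The transporter and its loading partner were close to empty as well. TAP1 was listed at 0 in DMSO 1, 0.163 in DMSO 2 and 0.0772 in DMSO 3, and at 0.105, 0.201 and 0.161 RPKM with OTI-611. TAP2 was listed at 0 in DMSO 1, 0.0210 in DMSO 2 and 0.0100 in DMSO 3, and at 0.0173, 0.0086 and 0.0256 RPKM with OTI-611. Neither subunit separated the groups. TAPBP was listed at 0 in DMSO 1, 0.221 in DMSO 2 and 0.328 in DMSO 3, and at 0.143, 0.188 and 0.199 RPKM with OTI-611, so that the OTI-611 libraries lay below DMSO 2 and DMSO 3. The 0 of DMSO 1 stands for any value under 1 if it was rounded down, and cannot be placed against them.

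The 5 genes under the minimum rested on 2 to 54 estimated reads per library. Fitted with no filter on low values, 0 of the 5 passed an adjusted p of 0.05 in limma and 0 had an unadjusted p under 0.05, with adjusted p from 0.45 to 0.99, beside 22.1% of all genes called in that fit. Without DMSO 1 the counts were 0 and 0 again, with adjusted p from 0.22 to 0.93. Both fits used log2(value + 1), which shrinks differences between values this far below 1. For TAPBP the mean of DMSO 2 and DMSO 3 was 1.56-fold the OTI-611 mean, but the log2 difference without DMSO 1 was -0.11. No difference was detectable at these read numbers and on this scale, which does not show that these transcripts did not change.

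The 3 genes outside the MHC all reached the minimum for testing. B2M (chromosome 15, 44711487 to 44718877, plus strand), the light chain that every class I molecule needs at the surface, rose slightly. It was at 104 in DMSO 1, 103 in DMSO 2 and 104 RPKM in DMSO 3, and at 116, 107 and 111 RPKM with OTI-611. The lowest OTI-611 library was above the highest DMSO library, with a spread of 4.4 against 0.42 (SD, n = 3 per group). The OTI-611 mean was 1.07-fold that of DMSO 2 and DMSO 3, or 0.10 ± 0.030 (SE) as a log2 fold change (limma adjusted p = 0.016), and again 0.10 without DMSO 1 (adjusted p = 0.043). The log2 fold change was 0.16 after rescaling to the median log ratio. The call was lost with no filter on low values (adjusted p = 0.066), with no mean-variance trend (0.068) and with decimals dropped in all libraries (0.059).

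ERAP1 (chromosome 5, 96760810 to 96808100, minus strand), the aminopeptidase that trims peptides to the length class I holds, was at 20 in DMSO 1, 19.7 in DMSO 2 and 19.9 RPKM in DMSO 3, and at 19.5, 18.7 and 18.0 RPKM with OTI-611. The groups did not overlap, but OTI-611 1 lay close to the DMSO libraries. The log2 difference was -0.08 with a 95% interval from -0.16 to 0.00 (limma adjusted p = 0.085), and -0.08 without DMSO 1 (adjusted p = 0.15), so it did not pass. It passed when OTI-611 1 was left out (-0.11, adjusted p = 0.038), and was -0.02 after rescaling to the median log ratio.

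NLRC5 (chromosome 16, 56989485 to 57083531, plus strand), the class I transactivator, fell in every OTI-611 library. It was at 3 in DMSO 1, 3.28 in DMSO 2 and 3.00 RPKM in DMSO 3, and at 1.46, 1.52 and 1.51 RPKM with OTI-611. The 3 treated libraries lay close together and far below all DMSO libraries. The mean of DMSO 2 and DMSO 3 was 2.09-fold the OTI-611 mean. On the log2(value + 1) scale it fell by 0.71 ± 0.088 (SE, adjusted p = 8.40e-05 in limma). Leaving DMSO 1 out gave -0.73 (adjusted p = 1.23e-04).

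**Figure D2:**
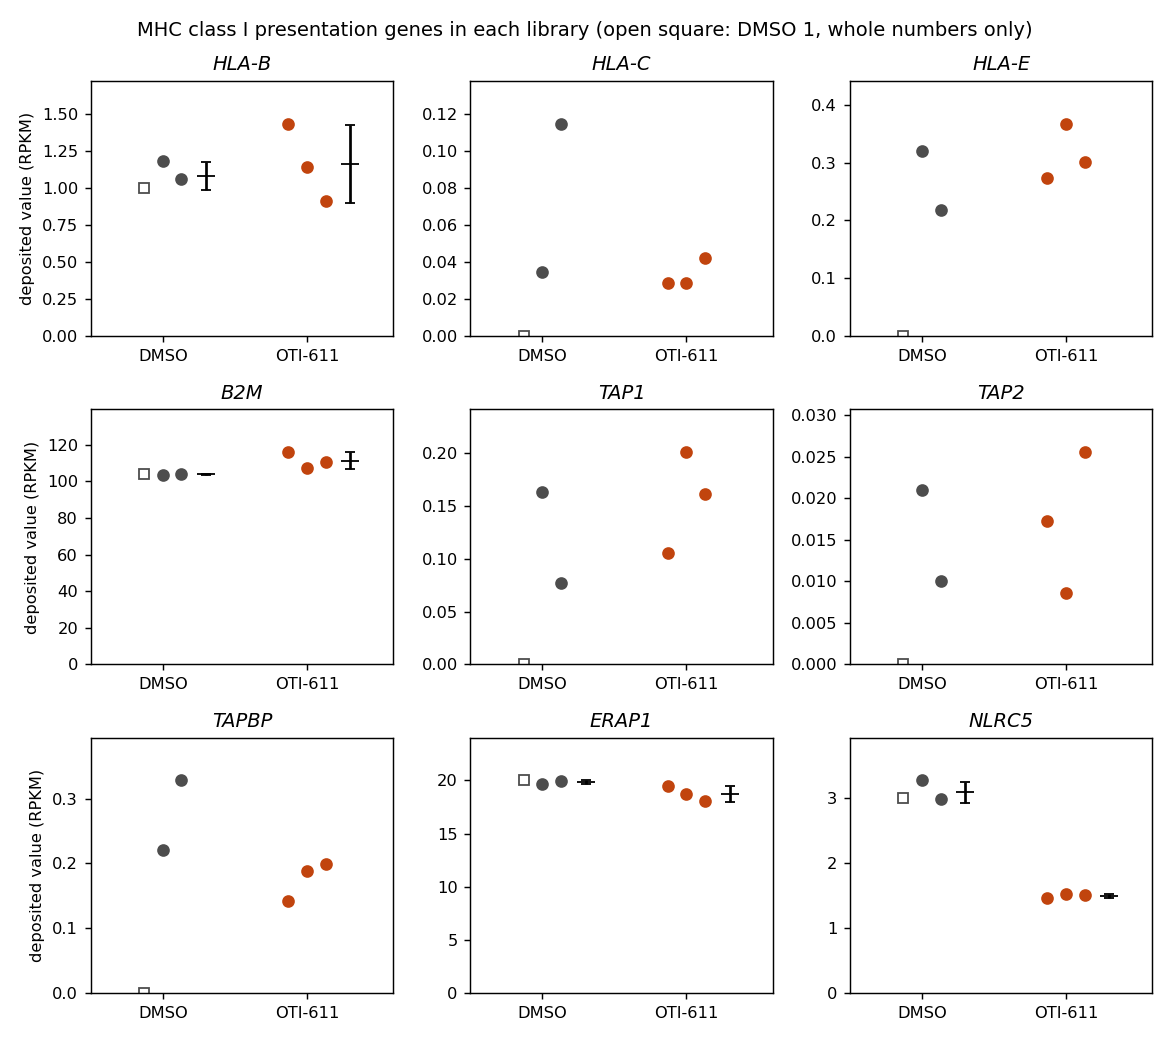
Deposited value of each of the 9 class I genes in the 6 libraries, DMSO in grey and OTI-611 in orange, with the open square for DMSO 1, each panel on its own scale from 0. Black bars give the mean and SD of 3 libraries for the 4 tested genes, where NLRC5 separates widely (about 3 against 1.5 RPKM), B2M and ERAP1 barely, and HLA-B not at all.

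Of the 4 tested genes, 1 rose (B2M), 1 fell (NLRC5) and 2 did not pass, beside 65.2% of all 11978 tested genes called (27.8% higher and 37.3% lower). Without DMSO 1 the same counts were found, 1 higher and 1 lower, beside 68.2% called (26.3% higher and 41.9% lower). Groups did not overlap for 3 of the 4, beside 70.2% of all tested genes, and for 3 of the 4 without DMSO 1, beside 79.5%. These shares are near or below those of all genes. The median log2 fold change of the 4 was -0.02, and that of all tested genes was -0.05. The 5 genes whose profile over the 6 libraries lay nearest to the mean profile of the 4 tested genes were TBCA, NUDCD2, TUSC3, SLC36A1 and a gene listed without a symbol (ENSG00000244313), at Euclidean distances of 0.029 to 0.046 on the log2 scale among 7769 candidate genes. That mean profile ran from 0.06 to 0.11 in the DMSO libraries and from -0.14 to -0.01 in the OTI-611 libraries, and it averages a gene that rose with one that fell.

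HLA-F, a non-classical heavy chain beside these genes, was at 1 in DMSO 1, 1.62 in DMSO 2 and 1.34 RPKM in DMSO 3, and at 1.09, 1.23 and 1.06 RPKM with OTI-611. The groups overlapped through DMSO 1, and the log2 difference was -0.12 (limma adjusted p = 0.49). Without DMSO 1 the OTI-611 libraries were all lower, with a difference of -0.22 (adjusted p = 0.075), and without DMSO 2 it was -0.02.

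Factors that bind class I promoters were called in both directions, as were all genes. The 12 tested had a median of -0.02 on the log2 scale, 5 of them higher, 5 lower and 2 short of the threshold, beside 27.8% of all tested genes higher and 37.3% lower (5 rose and 6 fell without DMSO 1). RFX5, the DNA-binding subunit of the RFX complex, was at 74, 74.3 and 74.2 with DMSO and at 47.5, 44.5 and 46.6 RPKM with OTI-611 (log2 fold change -0.67, limma adjusted p = 1.42e-07). RFXAP, its partner, fell from 4, 4.36 and 4.08 to 1.86, 1.71 and 1.65 RPKM, and the mean of DMSO 2 and DMSO 3 was 2.43-fold that of OTI-611 (-0.91, adjusted p = 9.50e-06). In both genes every treated library lay below every DMSO library. CREB1, which binds the X2 box, rose from 10, 10.3 and 10.2 to 17.0, 17.8 and 17.5 RPKM (0.72, adjusted p = 3.91e-07), and USF1, a helix-loop-helix factor, fell by 0.28 on the log2 scale (adjusted p = 8.09e-05). IRF1, the interferon-induced activator, fell from 5, 5.65 and 5.92 to 2.97, 3.31 and 3.54 RPKM (-0.61, adjusted p = 1.33e-04). The other factors called were ATF1 (0.28), NFYA (0.25), NFYC (0.18) and USF2 (0.36), all higher, and IRF2 (-0.42), lower. CIITA, the class II counterpart of NLRC5, stayed between 0 and 0.0729 in all libraries.

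Promoter sequences were searched for short motifs known to be bound by IRF, NF-Y and CREB or ATF proteins. No motif of RFX or USF proteins was searched for. RefSeq promoter windows (GRCh38.p14, 250 bases before to 50 after the start) were found for 7 of the 9 genes, and 5 are printed. These are the windows of B2M and ERAP1, tested genes outside the MHC, of TAP1, and of HLA-B and HLA-C, whose windows are near copies of each other. Where RefSeq gives a gene several starts, the first listed is shown. Capitals mark matches on either strand to 3 motifs: the core of the interferon-stimulated response element (ISRE), a pair of GAAA copies with 2 bases of any kind between them, read by IRF proteins, the Y box CCAAT, bound by NF-Y, and the X2 box core TGACG, bound by CREB and ATF proteins.

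B2M, chr15:44711267-44711566, plus strand: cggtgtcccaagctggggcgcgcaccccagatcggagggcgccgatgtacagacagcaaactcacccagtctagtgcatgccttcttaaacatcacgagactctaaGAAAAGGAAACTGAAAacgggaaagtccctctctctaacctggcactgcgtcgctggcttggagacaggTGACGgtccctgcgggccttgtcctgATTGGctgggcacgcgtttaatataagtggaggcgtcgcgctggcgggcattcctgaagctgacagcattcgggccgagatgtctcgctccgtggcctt

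ERAP1, chr5:96807896-96808195, minus strand: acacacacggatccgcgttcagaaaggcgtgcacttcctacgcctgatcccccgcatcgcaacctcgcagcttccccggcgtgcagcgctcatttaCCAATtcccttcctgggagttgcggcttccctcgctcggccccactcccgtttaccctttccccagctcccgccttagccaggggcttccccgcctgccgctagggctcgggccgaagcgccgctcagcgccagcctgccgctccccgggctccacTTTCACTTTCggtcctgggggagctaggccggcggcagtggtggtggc

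TAP1, chr6:32853655-32853954, minus strand: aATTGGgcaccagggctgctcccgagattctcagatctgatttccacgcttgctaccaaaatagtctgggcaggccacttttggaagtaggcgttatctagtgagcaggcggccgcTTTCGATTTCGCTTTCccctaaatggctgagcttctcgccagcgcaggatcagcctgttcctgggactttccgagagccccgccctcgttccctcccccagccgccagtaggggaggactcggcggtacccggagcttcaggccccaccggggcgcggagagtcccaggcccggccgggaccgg

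HLA-B, chr6:31357130-31357429, minus strand: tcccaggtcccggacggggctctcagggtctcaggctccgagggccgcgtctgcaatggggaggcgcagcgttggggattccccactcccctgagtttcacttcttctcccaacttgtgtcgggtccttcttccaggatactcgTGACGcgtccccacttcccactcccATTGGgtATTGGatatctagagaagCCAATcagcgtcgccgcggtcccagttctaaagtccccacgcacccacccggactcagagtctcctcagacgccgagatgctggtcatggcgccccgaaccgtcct

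HLA-C, chr6:31272043-31272342, minus strand: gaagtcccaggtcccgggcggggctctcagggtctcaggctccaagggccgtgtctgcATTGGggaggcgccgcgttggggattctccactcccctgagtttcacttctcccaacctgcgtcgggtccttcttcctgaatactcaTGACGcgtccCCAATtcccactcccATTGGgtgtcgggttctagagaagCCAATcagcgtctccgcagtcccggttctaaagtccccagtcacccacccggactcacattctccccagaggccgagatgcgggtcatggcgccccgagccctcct

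The ISRE core occurred in 5 of the 9 windows of these 7 genes, 1 each of B2M, TAP1, TAP2, TAPBP and ERAP1, beside 3.57% of all 35116 RefSeq promoter windows of that length. In B2M, TAP1 and TAPBP it occurred in a pair of overlapping matches, beginning 144 and 138 bases before the start in B2M, 134 and 128 in TAP1, and 20 and 14 in TAPBP. In ERAP1 the match lies just past the start. The Y box occurred in 5 of the 9 windows (34.6% of all windows) and the X2 core in 4 (24.6%), and B2M, HLA-B and HLA-C held the X2 core upstream of a Y box. The HLA-B and HLA-C windows were identical at 269 of 304 aligned positions (88.5%), and neither held the exact ISRE core. The matches are a description of letters in a window, and binding was not measured.

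**Figure D3:**
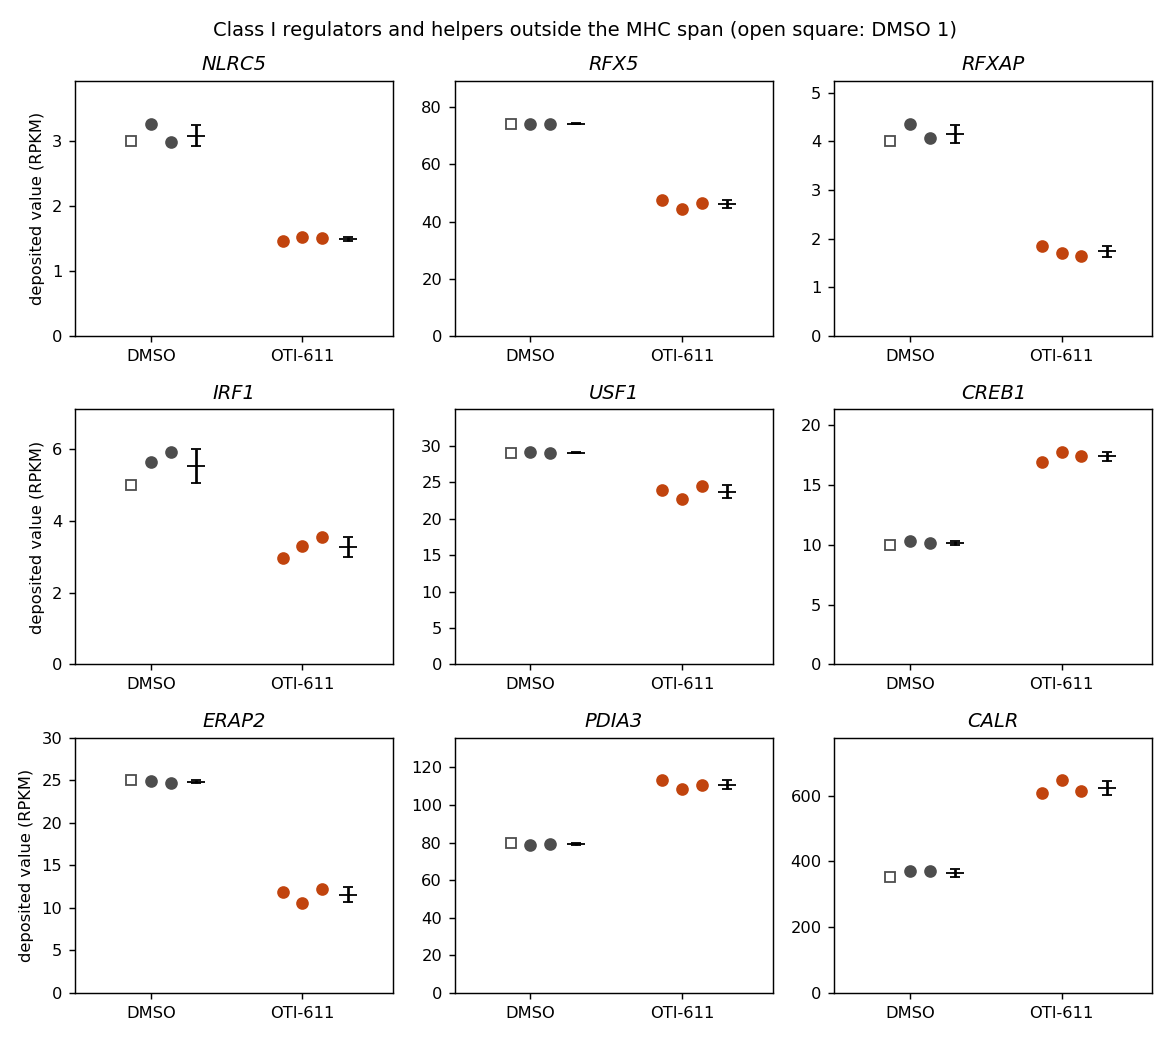
Deposited values of NLRC5 and 8 other class I regulators and helpers that lie outside the MHC stretch, per library, DMSO in grey and OTI-611 in orange, open square for DMSO 1, bars for the mean and SD of 3 libraries, axes from 0. NLRC5, RFX5, RFXAP, IRF1, USF1 and ERAP2 are lower in all 3 OTI-611 libraries, and CREB1, PDIA3 and CALR are higher. CREB1 is the only one shown of the 5 tested promoter factors called higher.

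Upstream of these factors, 5 of 14 tested interferon and NF-kB signalling genes were higher and 5 lower, beside 27.8% and 37.3% of all tested genes, with a median of 0.07 (5 and 6 without DMSO 1). STAT3, which relays cytokine signals, was at 92, 92.7 and 93.7 with DMSO and at 63.4, 62.3 and 65.3 RPKM with OTI-611, with no overlap (-0.54, limma adjusted p = 2.78e-07). The NF-kB inhibitor gene NFKBIA fell too (-0.88, adjusted p = 1.66e-06), while PTPN2, a phosphatase that switches JAK and STAT proteins off, rose by 0.47 on the log2 scale (adjusted p = 1.89e-06). IRF9, a DNA-binding subunit of the interferon-activated complex ISGF3, stood between 0 and 0.0212 RPKM. It lies on chromosome 14 in another near-empty stretch, where 1 of 12 protein-coding genes from PSME1 to NEDD8 had a mean of at least 1 (8.33%), with the importin gene IPO4 at 0.0074 to 0.0292 RPKM in the libraries with decimals.

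Genes that fold and load class I mostly rose, while the separate trimming enzymes mostly fell. Among 9 tested loading and folding genes the median was 0.44, with 6 higher, 1 lower and 2 short of the threshold, beside 27.8% of all tested genes higher and 37.3% lower (the same counts without DMSO 1). CALR, calreticulin of the peptide-loading complex, was at 352, 371 and 370 with DMSO and at 608, 646 and 615 RPKM with OTI-611 (0.77, limma adjusted p = 1.04e-07). PDIA3 (ERp57), the thiol oxidoreductase of the same complex, rose from 80, 78.9 and 79.1 to 113, 108 and 111 RPKM (0.48, adjusted p = 3.93e-07). The general chaperone HSPA5 rose by 2.64 and PDIA6 by 0.34 on the log2 scale, so the list is not specific to class I. The member that fell was TAPBPL, a peptide editor related to tapasin, from 5, 5.68 and 6.98 to 3.36, 3.39 and 3.28 RPKM (-0.66, adjusted p = 3.05e-04). SPPL3 (0.05) and UGGT1 (-0.07) did not pass.

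The 7 trimming enzymes beside ERAP1 had a median of -0.26, and 6 fell while TPP2 (0.06, limma adjusted p = 0.31) did not pass, beside 37.3% of all tested genes lower (the same counts without DMSO 1). ERAP2, the paralogue of ERAP1 that trims with it in the endoplasmic reticulum, was at 25, 24.9 and 24.7 with DMSO and at 11.9, 10.6 and 12.2 RPKM with OTI-611. All treated libraries lay below all DMSO libraries, the mean of DMSO 2 and DMSO 3 was 2.15-fold that of OTI-611, and the log2 fold change was -1.04 (adjusted p = 2.33e-07), against -0.08 for ERAP1. The cytosolic peptidases BLMH (-0.64), THOP1 (-0.32) and NRDC (-0.20) also fell.

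Tested proteasome genes that make class I peptides were called lower. Of 7 immunoproteasome and activator genes, 4 were tested and 4 called lower, with DMSO 1 or without it, beside 37.3% of all tested genes. Their median was -0.42, and the calls for PSME1 and PSME3 did not hold under every alternative. The assembly factor POMP fell by 0.56 on the log2 scale (limma adjusted p = 2.99e-07), the inducible subunit gene PSMB10 by 0.40 (adjusted p = 0.0027) and the nuclear activator PSME3 by 0.09 (adjusted p = 0.0093). The call for PSME3 was lost after rescaling to the median log ratio (-0.03, adjusted p = 0.51) and with no mean-variance trend (0.052). PSME1, which encodes an interferon-induced activator, had -0.45 (adjusted p = 0.041), but the call was lost without DMSO 2 (0.12), DMSO 3 (0.13), OTI-611 1 (0.13) or OTI-611 3 (0.12), with no filter (0.19), with no trend (0.069) and with decimals dropped (0.060), and the gene opens the near-empty stretch on chromosome 14. The PSME1 groups overlapped through DMSO 1, and without it the difference was -0.59 (limma adjusted p = 0.01). PSMB8 and PSMB9, inducible subunits encoded next to TAP1 and TAP2 in the MHC, stood between 0 and 0.0806 RPKM in all libraries. The constitutive subunits that the inducible ones replace are encoded elsewhere. PSMB5 (-0.39, limma adjusted p = 7.70e-07), PSMB6 (-0.30, 2.78e-06) and PSMB7 (-0.24, 8.62e-04) all fell, beside 37.3% of all tested genes lower (the same count without DMSO 1).

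**Figure D4:**
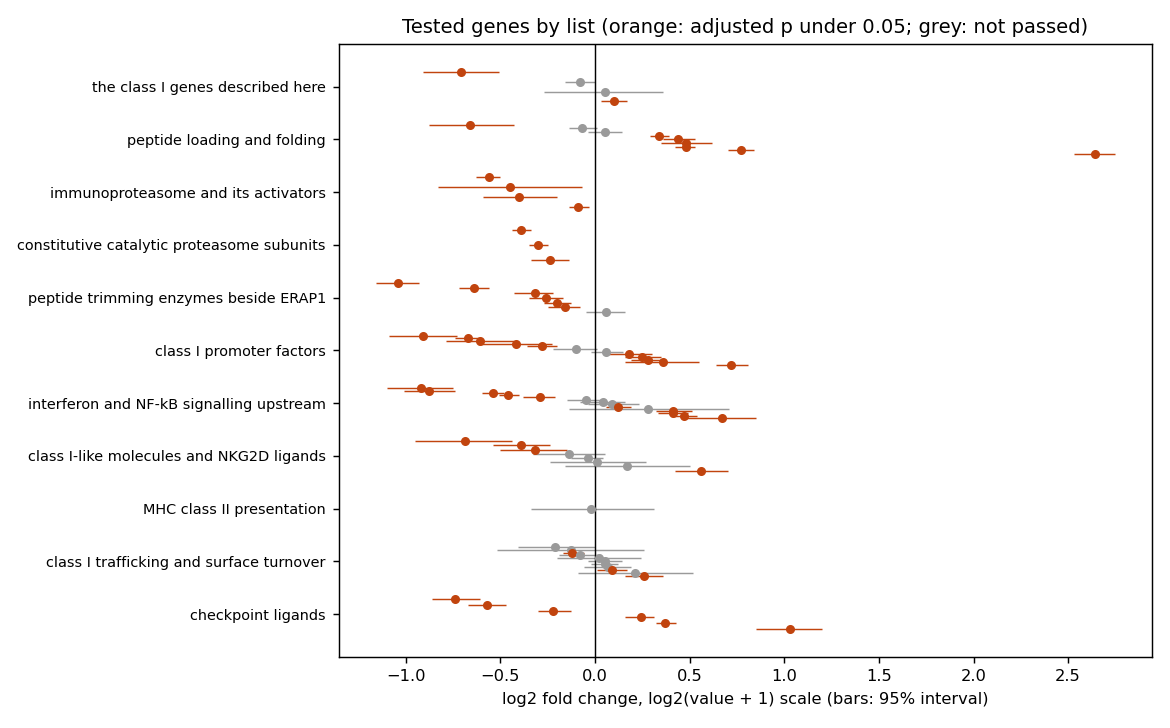
Log2 fold change, OTI-611 minus DMSO on the log2(value + 1) scale, of each tested gene of the lists shown, with 95% intervals from limma, orange where the adjusted p is under 0.05 and grey where not. The list of heavy chains beside the 9 class I genes and the cell markers are not shown. Proteasome genes and all trimming genes but TPP2 lie left of 0, loading and folding genes mostly right of it, and the class I genes themselves lie on both sides.

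Over all these lists together, those of the closing observations included, 77 of 103 genes were tested. Their median was -0.05, with 23 higher, 31 lower and 23 short of the threshold, beside 27.8% of all tested genes higher and 37.3% lower, and this median equals that of all tested genes. Among 11 tested class I trafficking and turnover genes, 2 rose, 1 fell and 8 did not pass, beside 65.2% of all tested genes called (1 rose and 3 fell without DMSO 1). WWP2, a ubiquitin ligase, rose by 0.26 (limma adjusted p = 6.84e-04), and TMED10, a cargo receptor, was at -0.12 (adjusted p = 0.0032), a call lost after rescaling to the median log ratio (-0.06, adjusted p = 0.22). BCAP31, an export receptor, was at 0.09 (adjusted p = 0.048), a call lost without DMSO 1 (0.13), DMSO 3 (0.15), OTI-611 2 (0.12) or OTI-611 3 (0.14), with no filter (0.15), no trend (0.13), decimals dropped (0.11), 0.5 added to DMSO 1 (0.051) or a pseudocount of 0.1 (0.050). SUSD6, a regulator of class I turnover, was at -0.21 (adjusted p = 0.070) and passed without DMSO 1 (-0.30, adjusted p = 0.0036). Of 9 class II genes in the table, 8 stayed under 1 in every library, and HLA-DRB1, the only one tested, had a difference of -0.02 (adjusted p = 0.92) with no stable direction. All HLA genes of this list lie in the near-empty MHC stretch, so their low values cannot be read as low expression.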

How the data were processed

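RNA was measured in 3 DMSO and 3 OTI-611 libraries of DU145 cells, grouped by their labels. The labels do not say whether these were separate cultures, so each p-value describes variation among the libraries at hand, possibly technical alone. Per the submitters' processing notes, the tools were HTSeq, Cufflinks 2.1.1, TopHat2 2.0.9, CASAVA 1.7 and FastQC and the build was mm10, with no role given. mm10 is a mouse build, whereas all 32692 IDs are human, so the build and annotation behind the values are not established. The authors deposited 5 columns with decimals, read as RPKM (FPKM would look the same), and DMSO 1 as whole numbers, treated as a score. All 6 columns were used.

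Depth was estimated from the steps of low values: 37.4% to 38.7% of them were whole reads within 0.05 at the best depth, with 10% by chance. Estimated reads use GENCODE release 29 exon lengths, cover counting error only and are approximate. In this release 30667 IDs were found.

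limma 3.58.1 in R 4.3.3 was fitted on log2(value + 1) of all genes with a mean of at least 1 (group as its only term, a variance trend with level, two-sided tests, p adjusted by Benjamini-Hochberg across all tested genes, threshold 0.05), and was tested on simulated data. This scale understates changes of low genes. The genes and lists were chosen with earlier results of these data known. The rule for named genes takes all 9 class I genes, up to 4 genes of smallest p per list, PSMB8, PSMB9, PSMB10, IRF1, CIITA, the markers and the 5 genes of nearest profile. TAPBPL, SPPL3, UGGT1, TPP2, ATF1, NFYA, NFYC, USF2, IRF2, IRF9, CD47, PVR and the genes quoted for the near-empty stretches were named after their values were seen. Some listed genes are not reported here by name. Alternatives changed the pseudocount, the filter, the scaling, the variance model, the decimals, the replicate block and the libraries used. Fits without a filter and DMSO 1 together, and without the MHC stretch, were chosen after seeing the data.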

Additional observations from a re-analysis of the deposited data

How the results depend on the processing

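The number of the 9 class I genes called was 2 in the primary analysis and 1 in 5 alternatives: no filter on low values (1, NLRC5), that with DMSO 1 left out (1, NLRC5), a minimum mean of 5 (1, B2M, with NLRC5 no longer tested), no mean-variance trend (1, NLRC5) and decimals dropped in all libraries (1, NLRC5). Leaving out 1 library at a time gave 2 to 3 of the class I genes, 52 to 57 genes of the pathway lists against 54, and 7130 to 8263 of all genes against 7805. NLRC5 stayed lower and called in every alternative that tested it, from -0.62 after quantile normalization to -0.86 with decimals dropped, and further still with a pseudocount of 0.1. The direction of HLA-B turned to -0.04 without OTI-611 1 and to -0.06 with 0.5 added to DMSO 1, and ran from -0.04 to 0.13 over the left-out libraries. HLA-DRB1 turned to 0.07 after quantile normalization, 0.04 after rescaling, 0.06 without DMSO 3 and 0.07 without OTI-611 3, and ran from -0.09 to 0.07 over the left-out libraries. The cause of these changes was not tested. Leaving the MHC stretch out of the fit left 7802 genes called. Same-numbered libraries were not paired by the labels, and their deviations correlated at 0.019, 0.000 and -0.058. With a replicate block the counts were 2, 55 and 7756, and no call for the 9 genes changed. The few estimated reads of HLA-C, HLA-E, TAP1, TAP2 and TAPBP limit what can be said of them.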

Other observations

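Ligands that natural killer and T cells read beside class I were called in both directions, as were all genes. Of 8 tested class I-like molecules and NKG2D ligands, 1 rose, 3 fell and 4 did not pass in limma, beside 27.8% of all tested genes higher and 37.3% lower, with a median log2 fold change of -0.09 (the same counts without DMSO 1). ULBP1, a stress-induced ligand of the activating receptor NKG2D, averaged 5.32 ± 0.28 with DMSO and 8.31 ± 0.51 RPKM with OTI-611 (SD over 3 libraries each) and rose by 0.56 on the log2 scale (limma adjusted p = 3.89e-05). MR1, which presents vitamin metabolites to MAIT cells, fell from 2.20 ± 0.21 to 0.979 ± 0.10 RPKM (adjusted p = 5.10e-04 in limma), and the iron regulator HFE (-0.32) and the neonatal Fc receptor gene FCGRT (-0.39), both partners of B2M, fell as well. With decimals dropped in all libraries the limma calls for MR1 (adjusted p = 0.062) and HFE (0.059) were lost. MICA and MICB, NKG2D ligands encoded in the near-empty MHC stretch, were under 1 everywhere.

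Of 6 tested checkpoint ligands, 3 were higher and 3 lower, with DMSO 1 or without it, beside 27.8% and 37.3% of all tested genes. CD274, which encodes PD-L1, was at 4, 4.80 and 5.23 with DMSO and at 10.5, 10.3 and 10.7 RPKM with OTI-611 (log2 fold change 1.03, limma adjusted p = 3.48e-06). All treated libraries lay above all DMSO libraries. NT5E, the adenosine-producing enzyme CD73, rose by 0.37 and PVR by 0.24 on the log2 scale, and CD276 (-0.74), NECTIN2 (-0.57) and CD47 (-0.22) fell.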
